A study of Mus musculus with 15 samples.

Results

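The oxidative phosphorylation genes of both genomes were followed in mouse T helper 2 (Th2) cells, before and after renewed stimulation. Cells with and without a conditional knockout of the ubiquitin ligase gene Asb2 were used. Members were taken by gene symbol: Nduf genes of the a, b, c, s and v series, Sdha to Sdhd, the Uqcr genes, Cox4 to Cox8, the Atp5 genes and the protein-coding genes of mitochondrial DNA. These symbols gave 104 of the 56748 gene entries, 91 nuclear and 13 mitochondrial, after 14 pseudogene entries were left out. In all, 93 had enough counts to test (80 nuclear, 13 mitochondrial). The rule reads symbols and no measured value, but it was set with earlier results of these data known.

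Naive CD4+ T cells from the spleens of female mice were polarised to Th2 cells for 3 days with anti-CD3ε, anti-CD28, interleukin 2, interleukin 4 and an antibody against interferon gamma, then expanded for 3 days in interleukins 2 and 4. All mice carried floxed Asb2 alleles (Asb2fl/fl). Control cells carried these alone (3 non-stimulated and 5 stimulated libraries), and conditional knockout (cKO) cells also carried Cre recombinase driven by the VE-cadherin promoter (VEC-Cre;Asb2fl/fl; 3 non-stimulated and 4 stimulated libraries). On day 5 the stimulated cells were given plate-bound anti-CD3ε (3 µg/ml) with anti-CD28 in solution (2 µg/ml) for 24 h. Ages, and whether libraries came from separate animals, are not given in the labels, and p-values therefore refer to the spread among libraries, which may be technical.

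Oxidative phosphorylation is carried out by 5 enzyme complexes of the inner mitochondrial membrane. Complexes I (Nduf and mt-Nd subunits), III (Uqcr and mt-Cytb) and IV (Cox and mt-Co) pump protons as electrons pass to oxygen, complex II (Sdh) feeds electrons from succinate, and complex V, the ATP synthase (Atp5 and mt-Atp), uses the proton gradient to make ATP. All but complex II combine subunits from both genomes: nuclear subunits are imported as proteins, whereas mitochondrial subunits are read from long transcripts that cover each strand of the circular mitochondrial DNA and are cut into single mRNAs. T cell activation is known to raise respiration together with glycolysis.

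Levels are given as CPM, counts relative to library sizes scaled by TMM (trimmed mean of M-values), or as TPM, which is also scaled by gene length, where genes are compared with each other. A gene was called when edgeR's quasi-likelihood test over 15619 genes gave a Benjamini-Hochberg adjusted p under 0.05. Fold changes are log2 values ± SE, stimulated over non-stimulated unless another order is named. Asb2 was at 25.6 to 49.7 CPM in non-stimulated and 31.2 to 38.0 CPM in stimulated control libraries, and at 12.7 to 22.7 and 9.36 to 9.59 CPM in the cKO libraries. Every cKO library thus lay below every control library, but Asb2 RNA remained in each cKO library. Means were 19.2 CPM in cKO against 36.7 in control cells without stimulation, and 9.49 against 33.5 CPM with it. The 9 T cell markers (Cd3e, Cd4, Cd5, Cd28, Trac and others) summed to 2169 to 3182 CPM in each library, but single markers moved on stimulation. In control cells means went from 358 to 208 CPM for Cd3e and from 912 to 619 for Cd28. Cd5 rose from 102 to 260 CPM, Cd4 changed little (401 and 391 CPM), and the other markers of the list were lower. In cKO cells Cd3e went from 345 to 209, Cd28 from 851 to 641 and Cd5 from 102 to 264 CPM. The 6 Th2 genes (Gata3, Il4, Il5, Il13, Il4ra and Ccr4) summed to 1659 to 2066 CPM without stimulation and 3488 to 4762 CPM with it. The rise of the sum came from the cytokine genes: control means went from 10.4 to 115 CPM for Il4, from 3.43 to 1035 for Il5 and from 26.5 to 1726 for Il13. Il4ra fell from 895 to 415 and Ccr4 from 228 to 177 CPM, and Gata3 changed little (701 and 721 CPM). In cKO cells Il4ra went from 916 to 436 and Ccr4 from 211 to 185 CPM. No erythroid marker had a count, and the 5 B cell markers summed to at most 6.97 CPM.

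In non-stimulated control cells mitochondrial mRNA was far more abundant per gene than nuclear mRNA for the same complexes. The 13 mitochondrial genes had a median of 3453 TPM and ran from 419 TPM for mt-Nd3 to 19745 TPM for mt-Atp8. The 80 tested nuclear genes had a median of 61.3 TPM and ran from 2.73 TPM for Cox6a2 to 503 TPM for Atp5b, which encodes the catalytic beta subunit of ATP synthase. By complex, the nuclear median was 42.1 TPM for complex I, 38.0 for complex II, 70.5 for complex III, 127 for complex IV and 114 for complex V. mt-Co1, the catalytic subunit of complex IV, was at 15092 ± 932 TPM (SD, n = 3), and mt-Cytb, the mitochondrial subunit of complex III, at 3795 ± 669 TPM. Both exceeded every nuclear member. The value of mt-Atp8 rests on a gene model of 204 bases, of which 43 also lie in mt-Atp6 on the same strand. mt-Nd6, alone of the 13 on the other strand of the mitochondrial DNA, was at 517 ± 161 TPM and shares 14 bases with mt-Nd5.

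Counts of 6 mitochondrial members cannot be separated cleanly from copies of mitochondrial DNA in the nuclear genome, which bears on every level of these genes. The copies Gm28437, Gm28438, Gm28439, Gm28661, Gm29216 and Gm10925 lie side by side on the minus strand of chromosome 1 in the GRCm38 reference, which is an older build than the one used for the counts. Gm10925 (chr1:24613974-24614651) matched mt-Atp6 over 678 of its 681 bases without a difference, and Gm28661 (chr1:24614885-24615565) matched 681 of the 684 bases of mt-Co2. Gm28437 and Gm28438 matched mt-Co3 over 783 bases and mt-Nd3 over 342 bases, also without a difference. Gm28439 held 876 of the 1378 bases of mt-Nd4, and Gm29216 held 483 of the 1545 bases of mt-Co1 with 1 difference, A1066T, counted from the first base of mt-Co1. The first 60 bases of the mt-Atp6 and mt-Co2 pairs are shown from GENCODE M21 transcripts, 5′ to 3′ with the start codon in capitals, because a read from such a stretch matches gene and copy alike.
mt-Atp6: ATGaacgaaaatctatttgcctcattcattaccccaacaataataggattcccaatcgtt
Gm10925: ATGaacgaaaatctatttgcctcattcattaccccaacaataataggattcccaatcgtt
mt-Co2: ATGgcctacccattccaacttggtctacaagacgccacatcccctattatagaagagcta
Gm28661: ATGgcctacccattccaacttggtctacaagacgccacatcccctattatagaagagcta
In these 4 sequences each gene and its copy were letter for letter the same.

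The copies held a large share of the counts of several pairs. Gm10925 held a median of 64.6% of the counts of the pair with mt-Atp6 (61.9 to 70.6% over 15 libraries). The share was 58.7% for Gm28661 with mt-Co2 (57.3 to 64.4%), 55.4% for Gm28437 with mt-Co3 (49.8 to 59.8%) and 76.5% for Gm28438 with mt-Nd3 (72.8 to 83.2%). It was 6.53% for Gm28439 with mt-Nd4 (4.79 to 8.86%) and 1.01% for Gm29216 with mt-Co1 (0.633 to 1.29%). Levels of mt-Atp6, mt-Co2, mt-Co3 and mt-Nd3 are therefore uncertain. When the counts of the copies were added, the log2 change of mt-Nd3 on stimulation of control cells went from 0.18 to -0.0026, and in cKO cells from 0.33 to 0.40, where it became a call (edgeR adjusted p = 0.0226). For mt-Co3 in cKO cells the change went from 0.73 to 0.63, and for mt-Atp6 and mt-Co2 it went from 0.71 to 0.68 and from 0.47 to 0.44. With the copies added 0 of 13 mitochondrial genes were called in control cells and 8 in cKO cells, against 0 and 7 without them. Of all genes 25.3% rose in control and 26.7% in cKO cells with the copies added.

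**Figure D1:**
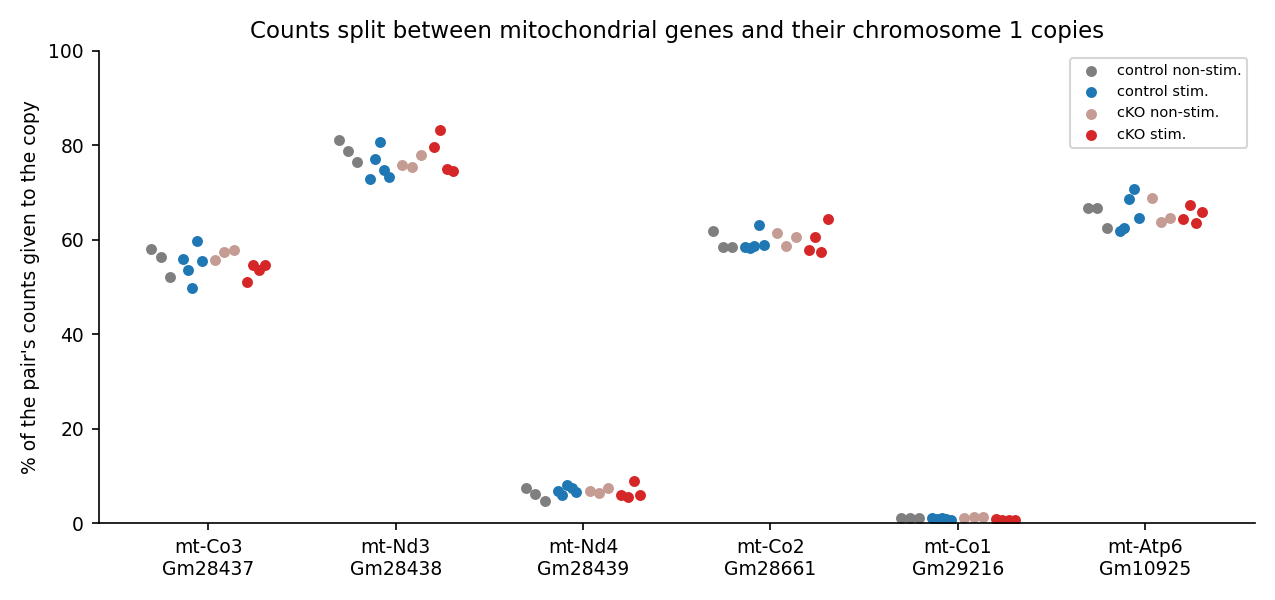
Share of the counts of each pair (y axis, %) that went to the chromosome 1 copy, for 6 mitochondrial genes and their copies (x axis). Each point is 1 of 15 libraries, coloured by group. The share lay between 49.8 and 83.2% for mt-Co3, mt-Nd3, mt-Co2 and mt-Atp6 and at most at 8.86% for mt-Nd4 and mt-Co1.

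A single library stood apart in its mitochondrial RNA. Stimulated cKO library 3 had the highest CPM of the 15 libraries for each of the 13 mitochondrial genes. Summed over them it reached 100049 CPM, against 41083 to 58519 CPM in the other 14. The mitochondrial members took 8.90% of its counts and 4.24 to 5.97% of the counts elsewhere. Both mitochondrial ribosomal RNAs together were at 5915 CPM in it and at 1200 to 2668 CPM elsewhere. The genes were not raised equally: mt-Atp8 made up 39.2% of the mitochondrial TPM in this library and 27.4 to 32.7% in the others, while mt-Nd1 made up 6.86%, the lowest of the 15. Mitochondrial results are given with and without this library, which the rule had named beforehand.

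Another 4 stimulated libraries differed in their small RNA. Rn7s1, Rn7s2, Rn7sk and Rpph1, abundant non-coding RNAs of the signal recognition particle, of transcription control and of ribonuclease P, took 1.93 and 2.30% of counts in stimulated control libraries 4 and 5. They took 2.03 and 1.85% in stimulated cKO libraries 2 and 4, and 3.05 to 4.22% in the other 11 libraries. The summed nuclear members moved with this division. They were at 4306 and 4313 CPM in those control libraries and at 4846 to 5469 CPM in stimulated control libraries 1 to 3. In the stimulated cKO group they were at 4576 and 4649 CPM in libraries 2 and 4, and at 5659.5 and 5579.8 CPM in libraries 1 and 3. The part of this difference in the member results was not tested, and counts are also given without the 4 libraries, an alternative chosen after seeing the data.

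**Figure D2:**
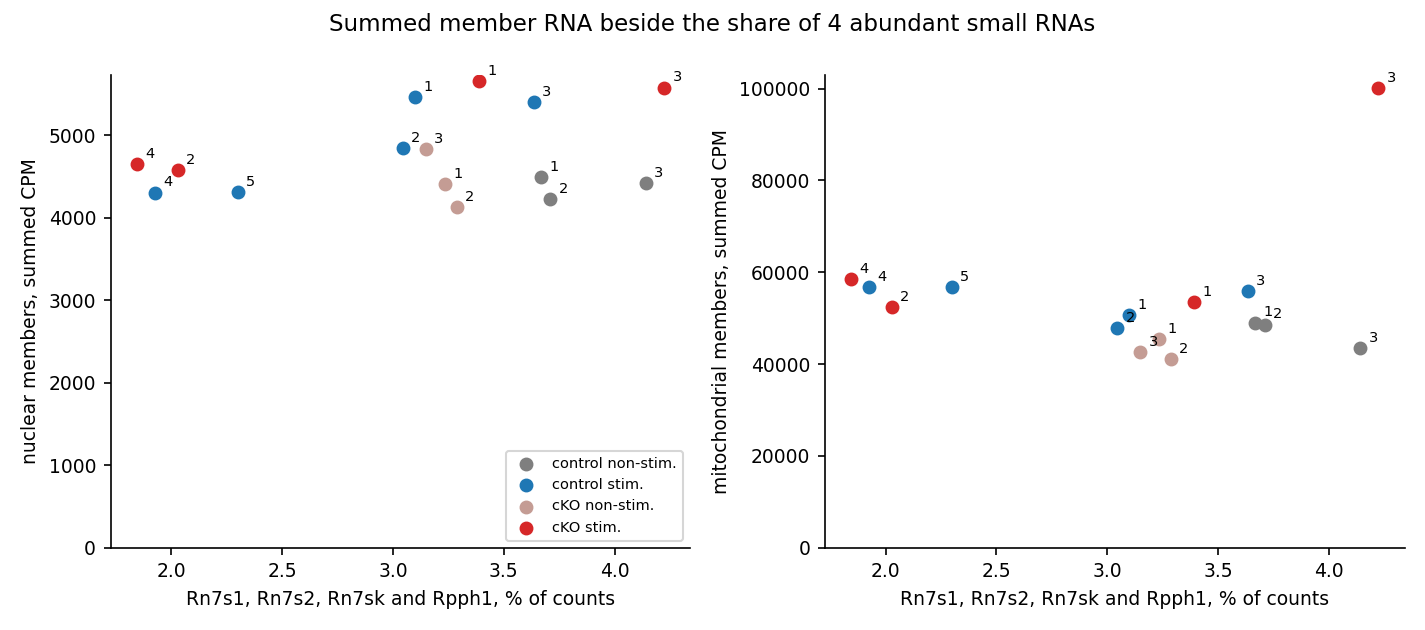
Summed CPM of the nuclear members (left) and the mitochondrial members (right) against the percentage of counts from Rn7s1, Rn7s2, Rn7sk and Rpph1. Each point is a library, coloured by group and numbered by replicate. The 4 stimulated libraries under 2.5% have lower nuclear sums than the other 5 stimulated libraries, and stimulated cKO library 3 lies apart in the right panel.

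The 2 genomes were first compared as sums. In non-stimulated control libraries 1 to 3 the mitochondrial members summed to 49052, 48617 and 43452 CPM, and in the 5 stimulated ones to 50677, 47829.7, 55937, 56765 and 56773 CPM. These ranges overlapped, since stimulated library 2 lay below 2 of the non-stimulated libraries. In cKO cells the sums were 45411, 41083 and 42536 CPM without stimulation and 53439, 52487, 100049 and 58519 CPM with it. All 4 stimulated cKO libraries lay above all 3 non-stimulated ones, with or without library 3. The nuclear members summed to 4494, 4224 and 4419 CPM in non-stimulated and 5469, 4846, 5405, 4306 and 4313 CPM in stimulated control cells. The corresponding nuclear sums were 4411, 4131 and 4838 CPM and 5659.5, 4576, 5579.8 and 4649 CPM in cKO cells. Stimulated and non-stimulated libraries overlapped in the nuclear sum in both genotypes. In these bulk libraries fewer cells of a type and less RNA per cell cannot be told apart.

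The log2 ratio of mitochondrial to nuclear TPM put the balance of the genomes into 1 value per library. It was 3.21, 3.23 and 3.04 in non-stimulated control, 3.00, 3.10, 3.17, 3.46 and 3.46 in stimulated control, 3.03, 3.11 and 2.87 in non-stimulated cKO and 2.97, 3.25, 4.05 and 3.37 in stimulated cKO libraries, in replicate order. The 2 highest values among stimulated control libraries were those of libraries 4 and 5, which have little small RNA. Stimulation changed the mean ratio by 0.08 in control cells. In cKO cells the change was 0.41, or 0.19 without cKO library 3. The cKO mean differed from the control mean by -0.16 without stimulation and by 0.17 with it, or -0.04 without cKO library 3. The stimulation difference was larger in cKO than in control cells by 0.33, or by 0.12 without that library. The pooled SD of the ratio within groups was 0.281 over all 15 libraries. It describes the spread of single libraries and is not the error of a difference between group means, which was not computed. That error is larger for the difference between responses, which draws on 4 means, than for a difference of 2 means. Of the differences over all libraries only 0.41 and 0.33 exceeded this SD, which does not put them on the same footing. Without cKO library 3 the pooled SD was 0.178. The difference of 0.19 on stimulation in cKO cells was then slightly above it, and the other differences were below it.

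**Figure D3:**
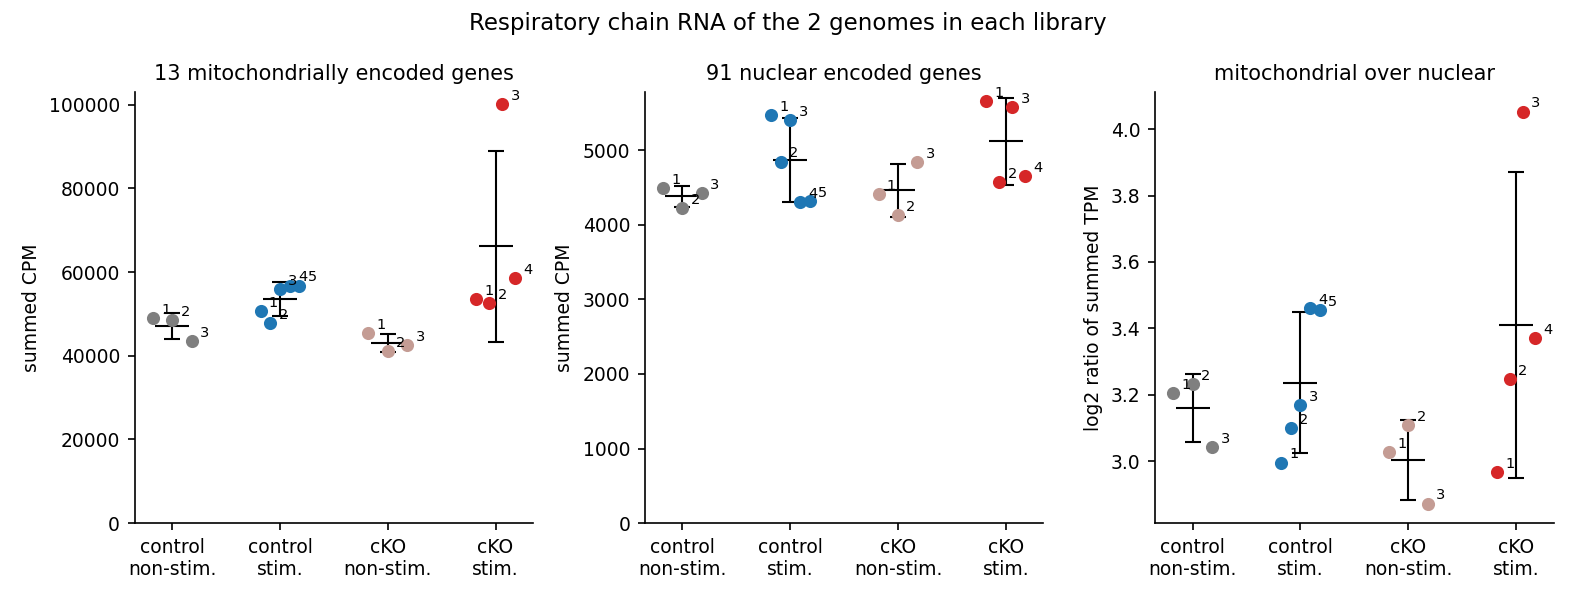
Summed CPM of the 13 mitochondrial members (left) and the 91 nuclear members (middle), and the log2 ratio of their summed TPM (right; this axis does not start at 0). Points are libraries numbered by replicate, and bars are group means ± SD. Stimulated cKO library 3 is highest for the mitochondrial sum (100049 CPM) and the ratio (4.05), while the nuclear sums of the groups overlap.

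Stimulation of control cells moved a part of the nuclear genes, mostly upward, and left the mitochondrial genes uncalled. Of 80 nuclear members 18 rose and 7 fell, or 22.5% and 8.75%, where 25.4% of all tested genes rose and 25.2% fell. Their median log2 fold change was 0.10, against 0.00 over all genes. In cKO cells 23 rose and 7 fell, against 26.7% and 27.1% of all tested genes, with a median of 0.11 against -0.01 over all genes. The share of members that rose was thus near that of all genes in both genotypes, and the share that fell was lower. In both comparisons 16 nuclear members rose and 6 fell, and none was called in opposite directions. Without the 4 libraries with little small RNA, 30 rose and 4 fell in control cells (23.5% and 22.4% of all genes) and 31 rose and 1 fell in cKO cells (24.6% and 22.5%). Of TPM, the small RNAs Rn7s1, Rn7s2, Rn7sk and Rpph1 took a mean of 37.1% in non-stimulated and 30.0% in stimulated control cells. In cKO cells they took 33.5 and 28.9%. TPM values were not rescaled before fitting, and the part of these shares in the TPM fits was not tested. On the scale of log2(TPM + 0.1) the median of all genes shifted to 0.14 in control and -0.09 in cKO cells. There limma called 24 higher and 5 lower in control and 13 higher and 8 lower in cKO cells, with member medians of 0.23 and 0.00. Under that fit 24.0% of all genes were higher and 13.5% lower in control cells, and 16.5% and 22.0% in cKO cells, so the share of members that rose in cKO cells was that of all genes. Leaving out non-stimulated control library 2 left 9 higher and 6 lower in control cells, where 20.7% and 21.2% of all genes were. Leaving out library 1 of that group left 13 higher and 3 lower, where 21.4% and 22.0% of all genes were.

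The complexes differed in how many members rose. Of all tested genes 25.4% rose and 25.2% fell in control cells, and 26.7% and 27.1% in cKO cells. Complex III had the highest nuclear medians, 0.38 in control and 0.46 in cKO cells, with 5 of 8 higher and 1 lower in each genotype. The 5 became 3 in control cells without non-stimulated control library 2, and 2 in cKO cells with limma on log2(TPM + 0.1). Complex I had 9 of 37 higher (24.3%) and 4 lower in control cells and 11 higher (29.7%) and 4 lower in cKO cells, shares of higher genes near those of all genes. Its 7 nuclear core subunits, those of the electron path shared with bacteria, had 3 higher and none lower in each. Complex V had 4 of 17 higher (23.5%) in both genotypes, also near the share of all genes, with none lower in control and 1 lower in cKO cells. Complex IV had none of 14 higher and 2 lower in control cells, and 2 higher and 1 lower in cKO cells. Complex II had none of 4 called in control cells and 1 higher in cKO cells. Differences between complexes were not tested.

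**Figure D4:**
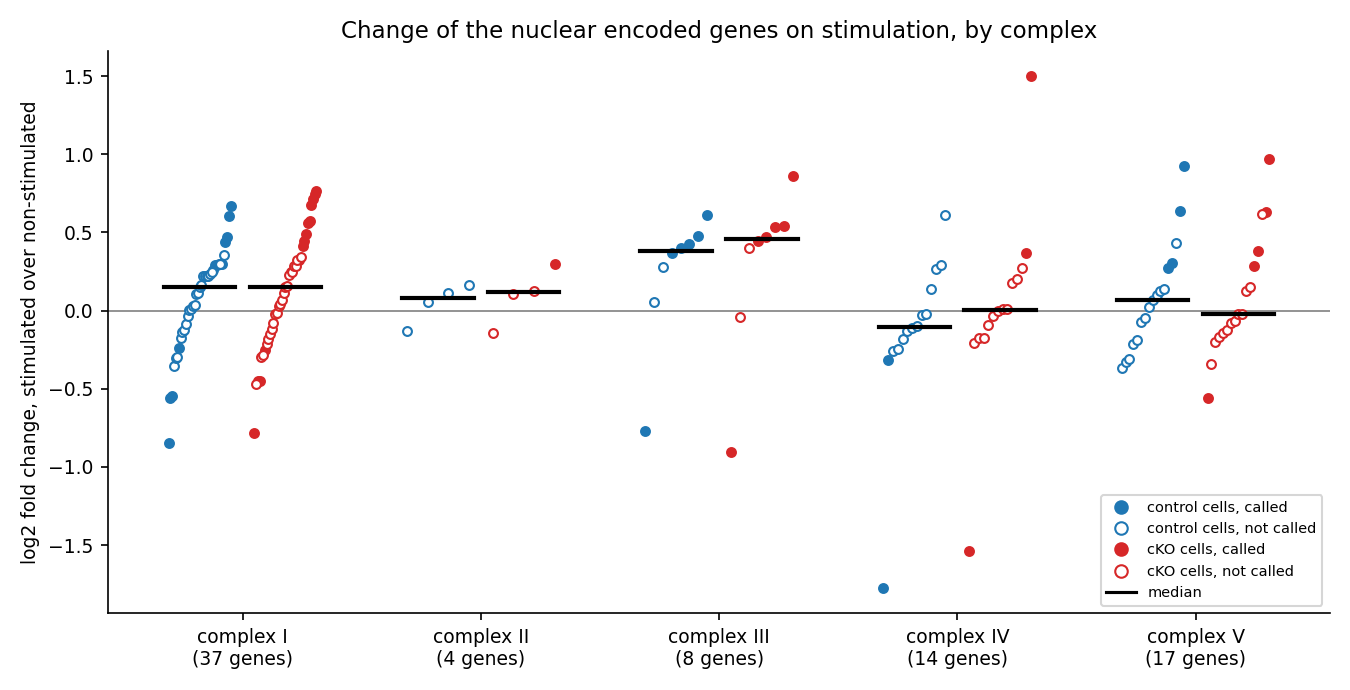
Log2 fold change on stimulation (y axis) of each tested nuclear member, by complex (x axis), in control (blue) and cKO cells (red). Filled points were called by edgeR at an adjusted p under 0.05, open points were not, and bars are medians. Complex III has the highest medians (0.38 and 0.46), while Cox6b2 of complex IV has the largest fall in each genotype.

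In complex V the largest rise was that of Atp5g1, 1 of 3 genes that encode the same proton-carrying c subunit of the membrane ring. It was at 20.6, 20.3 and 25.0 CPM in non-stimulated and 51.2, 37.5, 45.4, 35.1 and 39.7 CPM in stimulated control cells. In cKO cells it was at 24.3, 23.6 and 22.0 CPM before and 53.8, 38.7, 46.2 and 43.6 CPM after stimulation. No stimulated library overlapped a non-stimulated one, and the changes were 0.92 ± 0.13 in control and 0.97 ± 0.14 in cKO cells (edgeR adjusted p = 1.4e-05 and 1.2e-05). The other c subunit genes were more abundant in non-stimulated control cells and were not called. Atp5g2 was at 169 ± 7.39 TPM and Atp5g3 at 73.3 ± 9.17 TPM, against 43.2 ± 3.37 TPM for Atp5g1. Atp5g2 changed by -0.19 ± 0.13 and -0.14 ± 0.14, and Atp5g3 by 0.02 ± 0.16 and -0.07 ± 0.16. The catalytic subunit gene Atp5b went from 484, 418 and 522 to 865, 750.0, 783, 663 and 625 CPM in control cells and from 467, 461 and 509 to 853, 688, 699.6 and 723 CPM in cKO cells. Again the groups did not overlap (changes 0.63 ± 0.11 and 0.63 ± 0.12; edgeR adjusted p = 1.5e-04 and 2.2e-04). Its partner Atp5a1, the alpha subunit, rose less (0.30 ± 0.10 and 0.28 ± 0.11), as did Atp5pb of the peripheral stalk (0.28 ± 0.11 and 0.38 ± 0.11). Atp5mpl, which encodes a small associated protein, fell in cKO cells (-0.56 ± 0.19, edgeR adjusted p = 0.018) and was not called in control cells (-0.31 ± 0.18).

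In complex III both core proteins and the iron-sulfur protein rose in each genotype. Uqcrc1 went from 93.6, 91.3 and 103 to 146, 128, 126, 112 and 120.3 CPM in control cells and from 92.0, 95.9 and 94.3 to 151, 124, 122 and 125 CPM in cKO cells. Stimulated libraries all lay above non-stimulated ones, and the changes were 0.40 ± 0.09 and 0.47 ± 0.10 (edgeR adjusted p = 0.00185 and 5.9e-04). Uqcrc2 changed by 0.37 ± 0.09 and 0.53 ± 0.09, and Uqcrfs1, the Rieske iron-sulfur protein, by 0.43 ± 0.11 and 0.45 ± 0.12, also without overlap. Uqcrq, a small subunit beside cytochrome b, went from 34.8, 29.9 and 42.5 to 65.0, 54.2, 67.1, 40.9 and 45.8 CPM in control cells and from 32.5, 36.7 and 38.2 to 79.5, 54.7, 75.8 and 50.2 CPM in cKO cells. Stimulated control library 4 overlapped the non-stimulated group, and no cKO library did (changes 0.61 ± 0.18 and 0.86 ± 0.19). Uqcrh, the hinge protein that contacts cytochrome c1, fell: it went from 38.6, 36.5 and 22.2 to 19.9, 18.2, 27.3, 14.9 and 14.5 CPM in control and from 42.9, 30.4 and 47.6 to 26.5, 18.2, 25.8 and 15.7 CPM in cKO cells. Non-stimulated control library 3 lay within the stimulated range, and the changes were -0.77 ± 0.24 and -0.91 ± 0.25 (edgeR adjusted p = 0.0164 and 0.00787). Without the 4 libraries with little small RNA they were -0.55 and -0.60 and were no longer called.

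In complex I, Ndufs5 had the largest rise in control cells. This accessory subunit of the intermembrane space side went from 20.98, 18.8 and 19.9 to 32.3, 33.9, 32.2, 26.8 and 32.7 CPM in control cells and from 19.7, 17.5 and 20.6 to 32.8, 25.8, 38.8 and 29.8 CPM in cKO cells. The groups did not overlap, and the changes were 0.67 ± 0.12 and 0.72 ± 0.13 (edgeR adjusted p = 1.7e-04 and 1.2e-04). The membrane-arm accessory gene Ndufb6 rose by 0.60 ± 0.14 and 0.76 ± 0.15, also without overlap, and Ndufb4 by 0.44 ± 0.17 and 0.75 ± 0.17 with overlap in control cells. The core genes Ndufs1, Ndufs3 and Ndufv2, which belong to the electron path, rose in both genotypes but by less: Ndufs1 by 0.26 ± 0.08 and 0.24 ± 0.08, Ndufs3 by 0.30 ± 0.09 and 0.33 ± 0.10, and Ndufv2 by 0.30 ± 0.10 and 0.42 ± 0.11. Ndufv3, an accessory subunit at the tip where NADH is oxidised, fell. It was at 68.8, 69.3 and 59.2 CPM before and 40.0, 33.6, 46.0, 35.0 and 28.3 CPM after stimulation of control cells, and at 68.3, 56.7 and 77.5 CPM before and 42.9, 32.9, 43.0 and 38.2 CPM after stimulation in cKO cells. All stimulated libraries lay below all non-stimulated ones (-0.84 ± 0.14 and -0.78 ± 0.14; edgeR adjusted p = 5.5e-05 and 1.9e-04). Ndufb11 changed by -0.56 ± 0.13 and -0.45 ± 0.13 and Ndufa1 by -0.55 ± 0.18 and -0.45 ± 0.19, both called in each genotype. Of these, Ndufb11 in cKO cells and Ndufa1 in both genotypes lost the call without the 4 libraries (-0.20, -0.39 in control and -0.21 in cKO cells).

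In complex II, Sdhc, 1 of the membrane anchors, rose in cKO cells (0.30 ± 0.09, edgeR adjusted p = 0.00896) and changed by 0.11 ± 0.09 in control cells. Sdha, the flavoprotein that oxidises succinate, changed by 0.16 ± 0.08 and 0.13 ± 0.09 and was not called. The 2 genotypes' responses of Sdhc were not called different by the interaction test.

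Complex IV subunits come in tissue forms, and most of those of heart, muscle, lung or testis were at or near 0 counts, apart from Cox6b2 and Cox6a2, which had counts in all 15 libraries and were tested. Cox7b2, Cox8b and Cox8c had no count in any library, and Cox4i2, Cox6c2 and Cox7a1 had at most 10 counts in any library. The ubiquitous forms carried the complex: Cox4i1 was at 231 ± 18.3 TPM in non-stimulated control cells. It was not called, with changes of -0.26 ± 0.15 and -0.17 ± 0.16, nor were Cox6a1 (-0.10 ± 0.12 and 0.01 ± 0.13), Cox6b1 (-0.13 ± 0.15 and -0.21 ± 0.16), Cox7a2 (-0.18 ± 0.13 and 0.18 ± 0.13), Cox7b (0.29 ± 0.15 and 0.27 ± 0.16) and Cox8a (-0.24 ± 0.13 and -0.09 ± 0.14). Cox6b2, the testis form of subunit VIb, was detected at low level and fell. It went from 6.53, 5.22 and 3.94 to 1.22, 1.52, 1.85, 1.23 and 1.79 CPM in control cells and from 7.28, 4.33 and 2.54 to 2.87, 1.48, 1.18 and 0.860 CPM in cKO cells. Stimulated cKO library 1 lay within the non-stimulated range (-1.77 ± 0.34 and -1.54 ± 0.36; edgeR adjusted p = 3.5e-04 and 0.0018). The muscle form Cox6a2 was at 0.407, 1.64 and 0.499 CPM before and 1.41, 1.72, 4.78 and 1.77 CPM after stimulation in cKO cells. It was called there at 1.50 ± 0.60 (edgeR adjusted p = 0.0458), a call that was lost without library 3 (0.97, adjusted p = 0.158). Cox7c rose in cKO cells without overlap (0.37 ± 0.09, adjusted p = 0.00241) and changed by 0.14 ± 0.09 in control cells. Cox7a2l, a factor that joins complexes III and IV into supercomplexes, was at 134, 131 and 138 CPM before and 106, 108, 107, 103 and 115 CPM after stimulation in control cells. It fell there without overlap (-0.32 ± 0.11, adjusted p = 0.0203). In cKO cells it was at 116, 131 and 114 CPM before and 117, 99.0, 154 and 111 CPM after stimulation, with library 3 the highest, and changed by -0.01 ± 0.11. The interaction for Cox7a2l was 0.31 ± 0.16 (edgeR adjusted p = 0.997). Ndufa4, a further complex IV subunit despite its symbol, changed by 0.27 ± 0.20 and 0.20 ± 0.20 and was not called.

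The 11 members left out for low counts were Cox4i2, Cox6c2, Cox7a1, Cox7b2, Cox8b, Cox8c, Ndufa11b, Ndufa4l2, Ndufb11b, Ndufs6b and the second of 2 entries for Atp5o. Ndufa4l2, a form known to be induced in hypoxia, had 24 counts over all 15 libraries.

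The mitochondrial genes were each higher on average after stimulation in both genotypes by their own counts. Leaving out cKO library 3 changed the number called from 7 to 6 in cKO cells and from 0 to 4 in control cells. In control cells all 13 log2 fold changes were positive (0.06 to 0.59, median 0.17), though that of mt-Nd3 was not with the copies added, and edgeR called none. A single gene, mt-Nd6, had an unadjusted p under 0.05, DESeq2 called 1, and limma on log2(TPM + 0.1) called 3. In that limma fit the median was 0.30 for the 13 genes and 0.14 for all genes. In cKO cells all 13 were positive by edgeR (0.31 to 0.81, median 0.56), and 7 rose: mt-Nd2, mt-Nd4, mt-Nd5, mt-Cytb, mt-Co1, mt-Co3 and mt-Atp6. Of all genes 25.4% rose in control and 26.7% in cKO cells, and 26.1% and 25.8% without cKO library 3. Without that library the median in cKO cells was 0.26 and 6 rose, the same genes apart from mt-Nd2. Since all libraries share 1 estimate of the spread, leaving that library out also changed the calls in control cells to 4 (mt-Nd2, mt-Nd5, mt-Nd6 and mt-Cytb), with the same median of 0.17. Without the 4 libraries with little small RNA, 0 were called in control cells and 13 in cKO cells, where library 3 then made up 1 of 2 stimulated libraries. In that fit 23.5% of all genes rose in control and 24.6% in cKO cells. Without non-stimulated cKO library 2, 4 were called in cKO cells, where 24.0% of all genes rose.

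**Figure D5:**
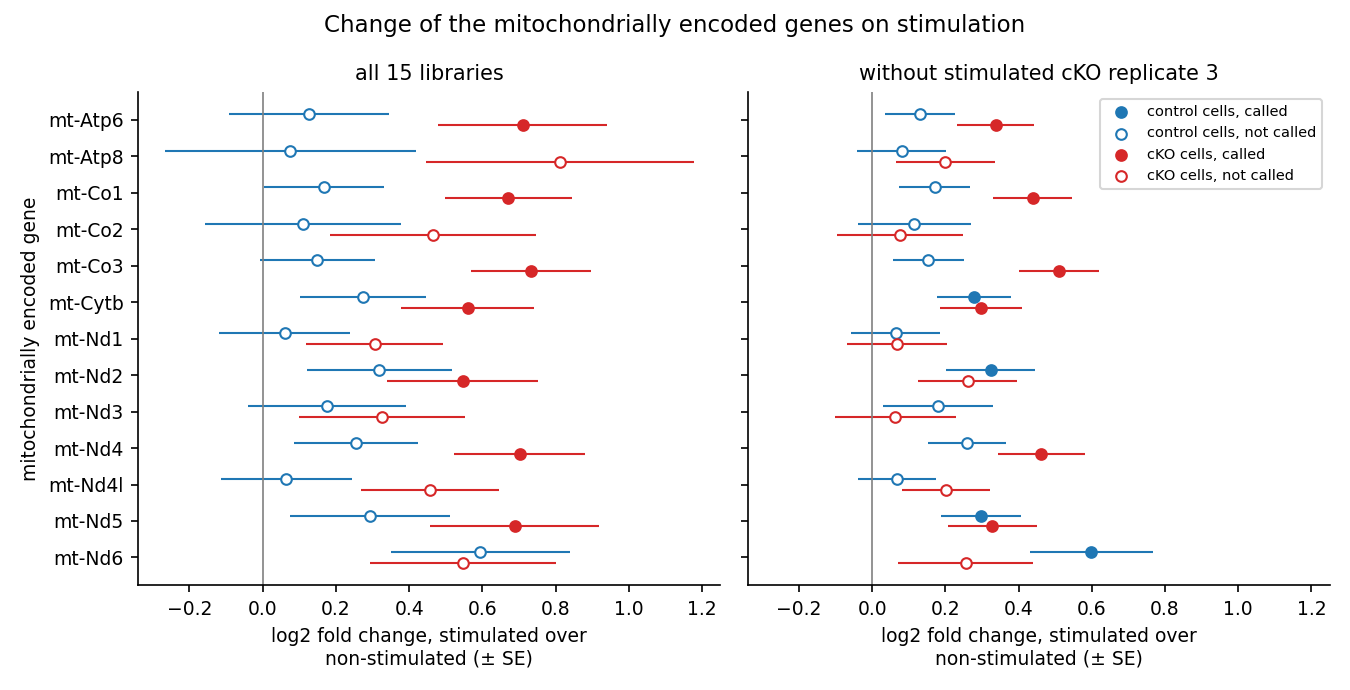
Log2 fold change ± SE on stimulation (x axis) of each mitochondrial member (y axis) in control (blue) and cKO cells (red), over all 15 libraries (left) and without stimulated cKO library 3 (right). Filled points were called by edgeR at an adjusted p under 0.05. With all libraries 7 genes were called in cKO and none in control cells, and without that library 6 and 4.

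For complex IV, mt-Co1 went from 20205, 19256 and 18230.4 to 24689, 24923, 44602 and 28232 CPM in cKO cells. All 4 stimulated libraries lay above the non-stimulated ones, and library 3 was the highest. The change was 0.67 ± 0.17 (edgeR adjusted p = 0.00336), and 0.44 ± 0.11 without library 3 (adjusted p = 0.00286). In control cells mt-Co1 was at 22325, 22405 and 21472 CPM before and 22246, 22039, 25315, 27347 and 26919 CPM after stimulation, with overlap (0.17 ± 0.16). mt-Co3 went from 1357, 1371 and 1457 to 1920.0, 1865, 3344 and 2146 CPM in cKO cells, again without overlap, with changes of 0.73 ± 0.17 and, without library 3, 0.51 ± 0.11. In control cells it was at 1424, 1579 and 1920.5 CPM before and 1688, 1821, 1924, 1712 and 1957 CPM after stimulation, where non-stimulated library 3 lay above 3 of the stimulated libraries (0.15 ± 0.16). mt-Co2 was at 1756, 1458 and 1711 CPM before and 2011, 1587, 3907 and 1569 CPM after stimulation in cKO cells and at 1969, 1908 and 1165 CPM before and 1905, 1591, 2161, 1635 and 1783 CPM after stimulation in control cells. It overlapped in both and was not called (0.47 ± 0.28 in cKO cells, 0.08 ± 0.17 without library 3, and 0.11 ± 0.27 in control cells).

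For complex III, mt-Cytb went from 3957, 3493 and 3736 to 4650.2, 4379.6, 8308 and 4655 CPM in cKO cells and from 4309.7, 3985 and 3168 to 4950.1, 4165, 4939, 4452 and 4596 CPM in control cells. The cKO groups did not overlap (0.56 ± 0.18, edgeR adjusted p = 0.015; 0.30 ± 0.11 without library 3, adjusted p = 0.0344). Control cells overlapped through stimulated library 2, with a change of 0.27 ± 0.17, which became a call without cKO library 3 (0.28 ± 0.10, adjusted p = 0.0284).

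Among the complex I genes, mt-Nd4 went from 4812, 4124 and 4046 to 5417, 5930.2, 10353 and 6460.4 CPM in cKO cells without overlap (0.70 ± 0.18; 0.46 ± 0.12 without library 3). In control cells it was at 4873, 5164 and 4479.6 CPM before and 5109, 5199, 5607, 6643 and 6327 CPM after stimulation (0.26 ± 0.17). mt-Nd5 went from 3540.3, 3116 and 3474 to 3881, 4164, 9115 and 4616 CPM in cKO cells (0.69 ± 0.23; 0.33 ± 0.12 without library 3). Its control values were 3939.8, 3732 and 3182 CPM before and 4154, 3667, 4502, 4828 and 5014 CPM after stimulation (0.29 ± 0.22). Stimulated control library 2 lay below 2 of the non-stimulated libraries for mt-Nd5. mt-Nd2 went from 2198, 1717 and 2270.3 to 2403, 2317, 4669 and 2655 CPM in cKO cells (0.55 ± 0.21, edgeR adjusted p = 0.0346). Without library 3 its change of 0.26 ± 0.13 was not called (adjusted p = 0.118). On the other strand, mt-Nd6 was at 209, 152 and 113 CPM before and 234, 206, 277, 236 and 240.3 CPM after stimulation. Non-stimulated library 1 lay within the stimulated range. The change of 0.59 ± 0.24 was the largest of the 13 in control cells but was not called (edgeR adjusted p = 0.0575; 0.00773 without cKO library 3). In cKO cells mt-Nd6 changed by 0.55 ± 0.25, or 0.26 ± 0.18 without library 3. mt-Nd1 (0.06 ± 0.18 and 0.31 ± 0.19), mt-Nd3 (0.18 ± 0.22 and 0.33 ± 0.23) and mt-Nd4l (0.06 ± 0.18 and 0.46 ± 0.19) were not called in either genotype.

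For complex V, mt-Atp6 went from 1379, 1642 and 1655 to 1997, 1805, 4319 and 2081 CPM in cKO cells without overlap, library 3 being the highest (0.71 ± 0.23; 0.34 ± 0.11 without it). In control cells it was at 1736, 1748 and 1823 CPM before and 2054, 2021, 1851, 1647 and 2083 CPM after stimulation, where stimulated library 4 lay below all non-stimulated libraries (0.13 ± 0.22). mt-Atp8 was at 521, 568 and 568 CPM before and 653, 574, 1984 and 667 CPM after stimulation in cKO cells. Its change of 0.81 ± 0.37 was the largest mean change of the 13 there but was not called (edgeR adjusted p = 0.0786), and it was 0.20 ± 0.14 without library 3. In control cells it was at 683, 672 and 509 CPM before and 625, 545, 820.1, 643 and 643 CPM after stimulation (0.08 ± 0.34).

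No member differed between cKO and control cells by edgeR. Without stimulation none of 80 nuclear and 13 mitochondrial members was called, where 0% of all 15619 genes were, and none had an unadjusted p under 0.05. With stimulation none was called, where 0.00640% of all genes (1 gene) were, and 3 nuclear members and 1 mitochondrial member had an unadjusted p under 0.05. DESeq2 and limma on log2(TPM + 0.1) also called no member in either condition. The median difference of the mitochondrial members, cKO minus control, was -0.06 without stimulation. With stimulation it was 0.30, and -0.02 without cKO library 3. That of the nuclear members was 0.03, 0.09 and, without that library, 0.03. mt-Co3 differed by 0.35 ± 0.14 after stimulation with all libraries. Without library 3 it differed by 0.11 ± 0.10, with a 95% interval of -0.09 to 0.32. For mt-Cytb the difference without that library was -0.02 ± 0.10 (interval -0.24 to 0.19).

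The stimulation responses of the 2 genotypes were not called different for any member (0% of all genes were called in the interaction). By unadjusted p, 2 mitochondrial members and no nuclear member were under 0.05 (edgeR), and DESeq2 and limma called none. The median mitochondrial interaction was 0.39, and 0.03 without cKO library 3. mt-Co3 had the interaction with the smallest mitochondrial p, 0.58 ± 0.22 (edgeR adjusted p = 0.997), and 0.36 ± 0.15 without that library. The larger number of mitochondrial calls in cKO than in control cells therefore did not come with a called difference between the responses.

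Promoters of the nuclear members were searched for sequence motifs known from respiratory genes, because 16 of them rose in both genotypes. RefSeq promoters (GRCm38.p6, 250 bases before to 50 after the start) matched 66 of the 80 tested nuclear members. The NRF1 motif of 10 bases, spelled out by the capitals of the windows printed with it and the same on both strands, was in 5 of the 66 (7.58%) and in 1.07% of the 27025 genes of the table. Its core GCATGC, which lies within it, was in 19.7% against 8.93%, the ETS motif CCGGAAG in 25.8% against 9.93% and the YY1 motif AAGATGGCG in 10.6% against 1.64%, both strands counted. The 27025 genes were not limited to the 15619 tested ones. Of the 12 matched members that rose in both genotypes, 1 held the NRF1 motif, 2 its core, 2 the ETS motif and none the YY1 motif. Of the other 54 matched members, 4 held the NRF1 motif, 11 its core, 15 the ETS motif and 7 the YY1 motif. The share was higher in the 12 for the NRF1 motif alone (8.33 against 7.41%). Whether the sets differ was not tested. The 5 windows with the NRF1 motif (capitals) are shown to let them be set beside the changes of their genes.
Uqcrc1, chr9:108936668-108936697, plus strand: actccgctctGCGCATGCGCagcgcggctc
Atp5g2, chr15:102671070-102671099, minus strand: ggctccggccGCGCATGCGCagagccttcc
Atp5k, chr5:108434430-108434459, minus strand: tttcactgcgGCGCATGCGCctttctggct
Cox6a1, chr5:115349101-115349130, minus strand: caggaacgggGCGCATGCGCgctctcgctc
Ndufa11, chr17:56717692-56717721, plus strand: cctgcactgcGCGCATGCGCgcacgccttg
Of these 5 genes Uqcrc1 alone was called, in both genotypes. Atp5g2, Cox6a1, Ndufa11 (-0.13 ± 0.14 and -0.12 ± 0.14) and Atp5k (-0.36 ± 0.32 and -0.20 ± 0.33), which encodes the small e subunit of ATP synthase, were not. A match is a description of letters in the window and not of binding.

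Genes that serve the members were counted in 9 further lists, to be read against the 25.4% of all genes that rose and 25.2% that fell in control cells and the 26.7% and 27.1% in cKO cells. Mitochondrial RNA processing and stability genes rose most widely: 17 of 21 rose in control cells and 21 of 21 in cKO cells, with none lower and medians of 0.55 and 0.56. Pnpt1, which encodes a mitochondrial RNA exonuclease, rose by 1.07 ± 0.10 and 1.20 ± 0.10, and Fastkd3 and Fastkd2, which bind mitochondrial mRNA, by 1.03 ± 0.11 and 1.05 ± 0.11 in control cells. Of 9 genes of mitochondrial transcription 4 rose and 1 fell in control and 5 rose and 1 fell in cKO cells. Polrmt, the mitochondrial RNA polymerase, rose by 0.72 ± 0.12 and 0.63 ± 0.13. Mterf3 rose by 0.41 ± 0.11 and the elongation factor gene Tefm by 0.51 ± 0.16 in control cells.

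In the list of electron carriers and coenzyme Q synthesis 14 of 20 rose in both genotypes, with 1 lower in control cells. Coq10b, a coenzyme Q binding protein gene, rose by 1.56 ± 0.14 and 1.64 ± 0.15, the coenzyme Q methyltransferase gene Coq3 by 1.60 ± 0.18 and 1.75 ± 0.18, and Gpd2, which passes electrons of glycerol 3-phosphate to coenzyme Q, by 1.08 ± 0.11 and 1.29 ± 0.12. Assembly factors of complex I had 11 higher and 3 lower of 19 in control and 9 higher and 2 lower in cKO cells. Timmdc1 and Ecsit of the membrane-arm assembly rose by 1.22 ± 0.15 and 1.07 ± 0.13 and Ndufaf5 by 1.40 ± 0.19 in control cells. Assembly factors of complexes II, III and V had 6 higher and 1 lower of 17 in control and 5 higher and 1 lower in cKO cells. Among them Sdhaf1, which helps insert iron-sulfur clusters into complex II, rose by 1.16 ± 0.15 and 1.53 ± 0.15, and Ttc19 and Tmem70, for complexes III and V, by 0.76 ± 0.13 and 0.68 ± 0.13 in control cells. Assembly factors of complex IV had 5 higher and 1 lower of 24 in control and 8 higher and 1 lower in cKO cells, shares of higher genes near those of all genes. In control cells the translation activator gene Taco1 rose by 0.52 ± 0.15 and the copper carrier gene Sco2 by 0.61 ± 0.19, and Cmc1 changed by -0.63 ± 0.17, a fall.

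Mitochondrial DNA replication genes were split, with 4 higher and 4 lower of 12 in control and 3 higher and 5 lower in cKO cells. The topoisomerase gene Top1mt rose by 1.47 ± 0.16 and the nucleotide reductase subunit gene Rrm2b by 0.75 ± 0.13 in control cells, and the primase gene Primpol had -0.61 ± 0.09. Of 15 tested regulators of respiratory genes 3 rose and 4 fell in control and 4 rose and 4 fell in cKO cells. Myc rose by 1.54 ± 0.21 and 1.78 ± 0.22, whereas Creb1 (-0.50 ± 0.10 and -0.44 ± 0.11) and Esrrb (-3.83 ± 0.62 and -2.32 ± 0.65), the latter at most at 1.14 CPM as a group mean, fell. Neither of the 2 mitochondrial ribosomal RNAs was called, and the 22 transfer RNAs had too few counts to test. The kit removes ribosomal RNA, so the level of these 2 is not that of the cells. Of the 6 nuclear copies none was called in control cells and 3 rose in cKO cells.

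Markers of other cell types were followed beside these changes, and most sums rested on 1 gene. The 5 endothelial or stromal markers (4 with a count, Col3a1 at 0) summed to 167 to 200.1 CPM in non-stimulated and 45.2 to 78.2 CPM in stimulated libraries. Nearly all of it was Pecam1 (165 to 197 and 44.3 to 77.1 CPM), while Cdh5 and Kdr were at most at 0.18 and 0.06 CPM and Col1a1 at most at 2.69 CPM. The 4 natural killer cell markers, all with a count, summed to 28 to 117 CPM and 4.09 to 15 CPM. Most of that was Eomes (24.4 to 99.2 and 3.71 to 12.99 CPM). Klrb1c was at 3.00 to 17.8 CPM in non-stimulated libraries, highest in control library 3, and at 0.243 to 2.01 CPM in stimulated ones. Ncr1 and Klra8 were at most at 0.37 and 0.10 CPM. The 7 myeloid markers (4 with a count; Lyz2, S100a8 and S100a9 at 0) summed to 13.2 to 22.8 and 2.82 to 6.32 CPM. In control cells means went from 11.9 to 0.911 CPM for Adgre1 and from 2.57 to 0.309 for Itgam. In cKO cells they went from 11.4 to 1.08 and from 2.31 to 0.039 CPM. Cd68 changed little (3.33 and 3.09 CPM in control, 3.54 and 3.18 in cKO cells), and Csf1r was at most at 0.05 CPM. The 4 dendritic cell markers (3 with a count, Siglech at 0) summed to 3.11 to 6.10 CPM without and 5.10 to 8.20 CPM with stimulation, with Flt3 and Zbtb46 higher and Itgax lower in every stimulated library than in every non-stimulated one. The 2 CD8 T cell markers summed to 7.39 to 27.8 and 5.83 to 28.8 CPM, with overlap. Their part in the stimulation results was not tested. In stimulated cKO library 3 the 5 sums, in the order given, were 51.5, 11.1, 3.15, 6.42 and 19.3 CPM, each within the range of the other stimulated libraries. Its 9 T cell markers summed to 2887 CPM, the highest of the stimulated libraries. Trbc2 was at 564 CPM in it (271 to 408 in the other stimulated libraries) and Trbc1 at 284 (143 to 213). Cd3g, Cd4 and Trac were also highest in it among stimulated libraries, while Cd3e, Cd3d, Cd5 and Cd28 were not.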

How the data were processed

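RNA of 15 libraries was sequenced after ribosomal RNA depletion with a stranded total RNA kit, per the labels' protocols. The authors deposited an estimated count and a TPM value for each of 56748 genes. The submitters' processing notes name the genome build GRCm39 and the tools Salmon 1.10.1, STAR 2.7.9a and cutadapt 3.4, without roles, and the annotation release is not given in the sources used here. Totals ran from 17.1 to 24.2 M estimated counts per library, and the common biological coefficient of variation was 15.4%.

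Deposited estimated counts were rounded, filtered with filterByExpr (15619 genes left), TMM-scaled and fitted with edgeR 4.0.16 in R 4.3.3 (robust quasi-likelihood, 1 mean per group, all 15 libraries). Tests were two-sided, with Benjamini-Hochberg adjustment over all genes tested, in 5 comparisons. The deposited TPM values gave the ratio of the genomes and the comparisons between genes. Alternatives used DESeq2 1.42.0, limma 3.58.1 on log2(TPM + 0.1) and log2(TPM + 1), other size factors and filters, only the groups compared, a replicate block, and each library left out. The scripts were tested on simulated data. Copies and promoters were matched with Biopython 1.88 to GENCODE M21 (GRCm38) and RefSeq.

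Members and the 10 pathway and 9 marker lists were chosen with earlier results of these data known. Genes named are all mitochondrial members, in each complex the 2 with the smallest p in either stimulation comparison, the 5 largest rises and 5 largest falls at 5 CPM or more, the tissue isoforms, every member left out for low counts, and from each pathway list the 3 with the smallest p in control cells. Other genes named were chosen after their values were seen.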

Additional observations from a re-analysis of the deposited data

Results flagged for a closer look

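Among groups of 4 or 5 libraries, a value was singled out when its gap to the nearest other library was too large a part of the range of the group (Dixon's 95% limit). This happened 13 times in 94 groups tested. Chance gives about 1 in 20 groups, but the 13 values cannot be set against that rate. Most of them came from a single stimulated cKO library that had been named beforehand as standing apart. Only the other 4 values can be set beside the rate.

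Stimulated cKO library 3 gave 9 of these values, each the highest of its group. It was highest for the summed mitochondrial members (100049 CPM), mt-Nd2 (4669 CPM), mt-Atp8 (1984 CPM), mt-Atp6 (4319 CPM), mt-Nd5 (9115 CPM), mt-Cytb (8308 CPM) and mt-Nd4l (296 CPM). It was also highest for the nuclear members Uqcrc2 (152 CPM) and Cox6a2 (4.78 CPM). The 6 single mitochondrial genes share this library and are not independent of each other.

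The other 4 values were spread over 3 libraries. Ndufs5 was lowest in stimulated control library 4 (26.8 CPM), and Cox6a2 was highest in stimulated control library 5 (3.76 CPM). Uqcrc1 (151 CPM) and Cox8a (100.5 CPM) were highest in stimulated cKO library 1.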

How the results depend on the processing

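Of 44 named results called on stimulation, 44 kept their direction and 19 kept their call under every alternative run, and none reversed. The count of mitochondrial genes called in control cells, 0, was 1 with DESeq2, 1 with only the groups compared, 3 with limma on log2(TPM + 0.1) and 3 with limma on log2(TPM + 1). In these fits 25.6, 25.5, 24.0 and 23.7% of all genes rose. The count was 0 to 4 with single libraries left out, where 20.7 to 26.1% of all genes rose, the 4 being without stimulated cKO library 3. In cKO cells the count of 7 was 4 with only the groups compared, 13 without the 4 stimulated libraries with little small RNA, and 4 to 10 with single libraries left out. There 26.3, 24.6 and 23.2 to 27.6% of all genes rose. The 25 nuclear members called in control cells, where 25.4% of all genes rose and 25.2% fell, were 15 to 26 with single libraries left out. They were 15 without non-stimulated control library 2 and 16 without library 1. Of all genes 20.7% then rose and 21.2% fell without library 2, and 21.4% and 22.0% without library 1. The causes were not tested. With the replicate number as a block, 33 nuclear members were called in control (27 higher, 6 lower) and 34 in cKO cells (27 higher, 7 lower). The mitochondrial calls were 0 and 8. In that fit 23.7% of all genes rose and 23.7% fell in control cells, and 26.4% and 26.9% in cKO cells. Same-numbered libraries did not deviate together (median correlation 0.0357 over 19 pairs, range -0.205 to 0.177), so the numbers were not taken as pairs. Groups of 3 to 5 libraries limit what could be called.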
